A study of Mus musculus with 6 samples.

Results

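The VEGF and angiopoietin signalling genes described here are 10 of the 32285 genes in the count tables, chosen as a list of symbols by pathway, with no threshold on a measured value but with earlier results of these data known. They comprise the ligands Vegfa, Vegfb and Pgf, the VEGF receptors Flt1 and Kdr, the co-receptors Nrp1 and Nrp2, the ligands Angpt1 and Angpt2, and Tek, the receptor of the angiopoietins. Nuclear RNA was measured by single-nucleus RNA sequencing (snRNA-seq) in retinas of rd10 mice (strain B6.CXB1-Pde6b-rd10/J), a model in which a mutation of the rod gene Pde6b leads to photoreceptor degeneration. Retinas were injected intravitreally at postnatal day 18 (P18) with 20 ng of the cytokine IL-27 (replicates 4, 5 and 10) or with saline (replicates 1, 2 and 6) and collected at P20. All 6 libraries carry the rd10 mutation and all retinas were injected, and no wild-type or uninjected retina was analysed here. The labels do not state that each library came from a separate animal, so p-values measure the spread between these libraries, which may be technical.

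VEGF-A is secreted by neurons and glia of the retina and acts on endothelial cells through KDR (VEGFR2), the main signalling receptor, whereas FLT1 (VEGFR1) binds VEGF-A, VEGF-B and placental growth factor and limits the VEGF-A that reaches KDR. The neuropilins hold VEGF on the cell surface and are also receptors for class 3 semaphorins, which guide axons. Angiopoietin-1 from perivascular cells activates TEK (TIE2) on endothelium and stabilises vessels, and angiopoietin-2 acts as a context-dependent antagonist of the same receptor.

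The promoters of Flt1, Kdr and Tek are shown because the highest levels of Flt1 and Tek, and high levels of Kdr, were found in endothelial nuclei. Each sequence is the 250 bases before the RefSeq start on GRCm38.p6, written 5′ to 3′ on the strand of the gene, and 8 of the 10 genes had an entry. Capitals mark 2 motifs searched on both strands, the ETS-type core GGAAGT or, read from the other strand, ACTTCC, bound by a transcription factor family that includes regulators of endothelial genes, and the GC box GGGCGG or, read from the other strand, CCGCCC. The Flt1 window lies at chr5:147726012-147726261, minus strand, the Kdr window at chr5:75978456-75978705, minus strand and the Tek window at chr4:94739039-94739288, plus strand.
Flt1: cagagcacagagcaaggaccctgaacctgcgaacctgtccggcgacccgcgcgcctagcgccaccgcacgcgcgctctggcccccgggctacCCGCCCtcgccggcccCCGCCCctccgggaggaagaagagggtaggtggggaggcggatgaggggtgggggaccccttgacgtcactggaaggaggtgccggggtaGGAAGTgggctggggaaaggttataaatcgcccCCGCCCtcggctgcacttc
Kdr: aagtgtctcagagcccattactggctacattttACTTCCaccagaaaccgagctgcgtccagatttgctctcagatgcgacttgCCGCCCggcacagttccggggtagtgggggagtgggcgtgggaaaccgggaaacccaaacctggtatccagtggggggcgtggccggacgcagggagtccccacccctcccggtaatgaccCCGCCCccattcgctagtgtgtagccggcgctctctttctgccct
Tek: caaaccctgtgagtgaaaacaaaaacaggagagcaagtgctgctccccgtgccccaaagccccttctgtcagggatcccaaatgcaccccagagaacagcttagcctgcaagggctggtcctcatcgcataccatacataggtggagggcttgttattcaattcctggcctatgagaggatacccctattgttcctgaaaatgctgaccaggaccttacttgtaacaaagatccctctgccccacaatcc

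The Flt1 window held 1 ETS-type core at position -52 and 3 GC boxes, and a TATA box (TATAAA or, read from the other strand, TTTATA) at position -31. The Kdr window held 1 ETS-type core at position -217, on the opposite strand, and 2 GC boxes. No match to these motifs or to the hypoxia-type core ACGTG, or CACGT from the other strand, was found in the Tek window, which says only that these letters are not in it. The matches did not overlap each other in these windows. Of all 32851 promoter windows of this length, 19.7% held the ETS-type core, 32.7% the GC box, 12.4% the TATA box and 16.6% the hypoxia-type core. The GC content was 70.4% for Flt1, 61.6% for Kdr and 51.2% for Tek, against a median of 52.4% over all windows.

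The libraries held 8968 to 9965 barcodes and 36678332 to 48260748 UMIs. Of 56634 barcodes, 52193 nuclei were retained, and 48739 nuclei entered the sums. Pairs of libraries shared 18 to 30 barcode sequences. Clusters were named from marker lists that hold none of the 10 genes, and each name below stands for nuclei like that type. The types were rods (15552 nuclei), cones (3331), bipolar (9485), amacrine (9739), horizontal (495) and ganglion cells (2190), Muller glia (5435), astrocytes (297), microglia (1557), endothelial (239) and mural cells (131), the last being pericytes and smooth muscle. All 12 endothelial markers and 10 of 12 mural markers had a UMI in at least 10% of the nuclei of their type, against 4 of 10 astrocyte markers, with Itih3 at 0. A further 3391 neuronal nuclei in 3 clusters were given no type, and 351 nuclei stayed unnamed or mixed. Hbb-bs, a haemoglobin gene, was among the leading genes of the endothelial cluster. In the mural cluster the class with the second highest marker score was pigmented epithelium (1.78, against 4.38 for mural cells). In the endothelial cluster it was Muller glia (0.32, against 5.71 for endothelial cells).

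Levels are given as CPM, the UMIs of a gene per 1e6 UMIs of the nuclei summed per library, as mean ± SD over the 6 libraries, and they describe where each gene was found, with no test. CPM is not per length, so the size of a level was not compared between genes. Shares of nuclei with a UMI were taken after thinning each nucleus to 1000 UMIs, so that depth does not set them, and carry 95% exact binomial (Clopper-Pearson) intervals that cover counting error only. Thinning left out 4217 of the 15552 rod nuclei and at most 88 nuclei of any other type.

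Vegfa (chr17:46016993-46032369, minus strand; GENCODE M21 on GRCm38 for this and the other gene positions) was highest in astrocytes, with 723 ± 178 CPM. The libraries ranged from 419 to 918 CPM, all above every Muller library (85.7 to 138 CPM, mean 109 ± 19.9), a difference of the means of 6.67-fold. After thinning, 41.6% of astrocyte nuclei had a Vegfa UMI (interval 35.9 to 47.5), against 10.6% of Muller nuclei and 0.472% of endothelial nuclei (1 of 212 nuclei, median 2361 UMIs per nucleus before thinning). Ganglion, bipolar and amacrine cells and cones followed at 72.3 to 74.5 CPM, and their ranges overlapped. Rods stood at 33.1 ± 3.0 CPM. Endothelial nuclei held 5 Vegfa UMIs in all. Although their level was modest, the many amacrine nuclei gave the largest part of the Vegfa UMIs of any type, 28.5 ± 0.940% per library.

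Vegfb (chr19:6982473-6987651, minus strand) was spread over all types, between 7.37 ± 6.21 CPM in endothelial nuclei and 28.7 ± 3.60 CPM in ganglion cells, and every pair of neighbours in the order overlapped. Pgf (chr12:85166635-85177790, minus strand) had its highest mean in mural cells, 29.9 ± 18.6 CPM from 10 UMIs with 1 library at 0, followed by endothelial nuclei (10.4 ± 10.9 CPM) and Muller glia (6.05 ± 3.37 CPM). The ranges of these 3 types overlapped. Muller glia, being numerous, gave 60.3 ± 3.87% of all Pgf UMIs, and no Pgf UMI was found in thinned microglia (0 of 1469 nuclei, upper bound 0.251%) or ganglion cells (0 of 2188, upper bound 0.168%). At their own depth, a mean of 0.349% of microglia and 0.162% of ganglion nuclei had one.

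**Figure D1:**
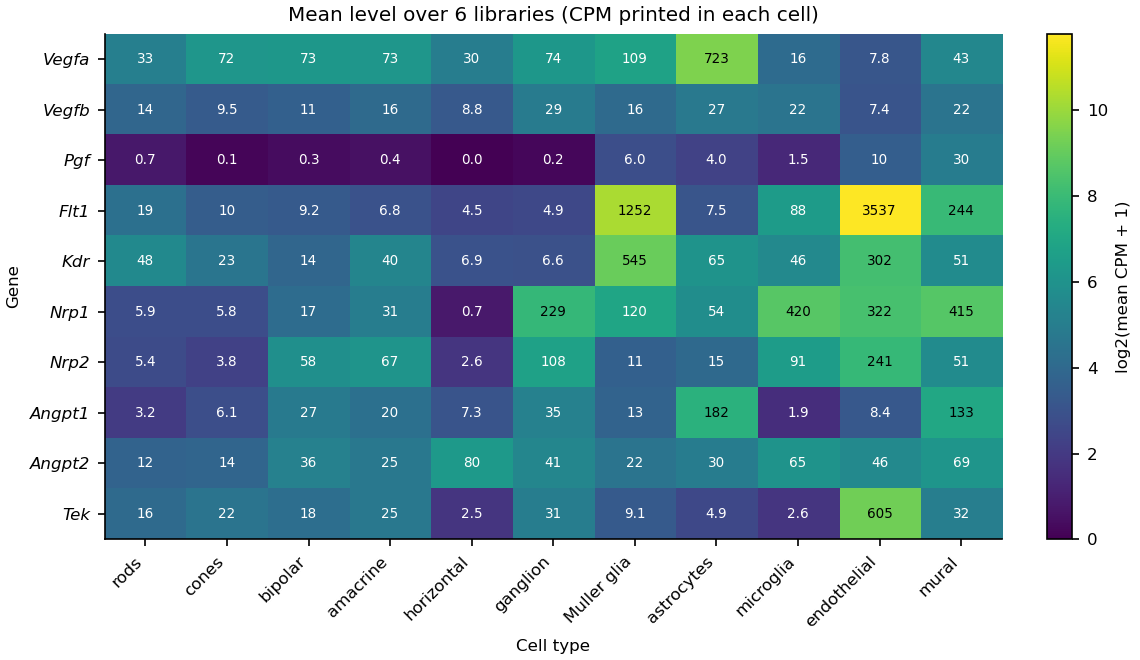
Mean CPM over the 6 libraries of each gene (rows) in each of the 11 cell types (columns), printed in the cell and coloured as log2(mean CPM + 1). Flt1 is highest in endothelial nuclei (3537 CPM) and Muller glia (1252 CPM), Kdr in Muller glia (545 CPM), Vegfa in astrocytes (723 CPM) and Tek in endothelial nuclei (605 CPM).

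Both VEGF receptors were found in Muller glia as well as in endothelium. Flt1 (chr5:147561604-147726011, minus strand) reached 3537 ± 602 CPM in endothelial nuclei, followed by Muller glia with 1252 ± 201 CPM and mural cells with 244 ± 80.4 CPM, and none of these ranges overlapped. Kdr (chr5:75932827-75978458, minus strand) had the opposite order, with 545 ± 80.4 CPM in Muller glia and 302 ± 54.7 CPM in endothelial nuclei, again without overlap (395 to 615 and 214 to 358 CPM). Since Muller nuclei outnumbered endothelial nuclei, they held 88.1 ± 2.03% of all Flt1 UMIs and 72.0 ± 2.93% of all Kdr UMIs.

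After thinning, 90.1% of endothelial (interval 85.3 to 93.8) and 61.4% of Muller nuclei (60.1 to 62.7) had an Flt1 UMI, against 0.411% of ganglion nuclei (0.188 to 0.779). For Kdr the shares were 37.7% in Muller, 26.4% in endothelial and 0.594% in ganglion nuclei. The median depths before thinning were 4319, 2361 and 9865 UMIs in Muller, endothelial and ganglion nuclei. The number of Flt1 UMIs per Kdr UMI was 11.6 in endothelial nuclei (9.50 to 13.9 over the libraries) and 2.24 in Muller glia (1.68 to 3.88). It was 5.21 in mural cells (1.67 to 8 over the 5 libraries with a Kdr UMI) and 1.84 in microglia (1.06 to 5.75), both overlapping with Muller glia, and was lowest in astrocytes (0.114, 0 to 0.333). In the neurons it ran from 0.169 in amacrine cells (0.119 to 0.193) to 0.694 in ganglion cells (0.240 to 2.08), with rods at 0.422 (0.297 to 0.827), and the ranges of ganglion cells and Muller glia overlapped.

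Within the neurons, Kdr was highest in a few amacrine clusters. The cluster led by A930001A20Rik, Slc17a8 and Trhde (821 nuclei) had 135 ± 29.6 CPM, and the cluster led by Tll1, Dab1 and Kcnh1 (1085 nuclei) had 124 ± 5.87 CPM, against 39.9 ± 2.08 CPM over all amacrine nuclei. Slc17a8 encodes the vesicular glutamate transporter VGLUT3, which marks a known amacrine type. Rods stood at 48.1 ± 10.4 CPM and ganglion cells at 6.58 ± 1.11 CPM.

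The co-receptors had different distributions. Nrp1 (chr8:128358604-128503363, plus strand) was highest in microglia (420 ± 70.0 CPM), mural cells (415 ± 174) and endothelial nuclei (322 ± 129), whose ranges overlapped. Ganglion cells followed with 229 ± 21 CPM, above all libraries of Muller glia (120 ± 8.80), and held 38.1 ± 5.45% of all Nrp1 UMIs. The thinned share was 34.1% of mural nuclei (25.8 to 43.2) and 27.9% of microglia (25.6 to 30.3). It was 19.8% of endothelial (14.7 to 25.8) and 19.6% of ganglion nuclei (17.9 to 21.3), and lowest in horizontal nuclei (0.202%, 1 of 495).

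Nrp2 (chr1:62703285-62818695, plus strand) was highest in endothelial nuclei (241 ± 84.7 CPM), above all libraries of ganglion cells (108 ± 6.44). Microglia, amacrine and bipolar cells followed at 90.8 ± 16.3, 66.6 ± 6.26 and 57.9 ± 3.40 CPM. A small amacrine cluster led by Hpgd, Pantr1 and Tafa1 (355 nuclei) exceeded the endothelial mean, with 413 ± 59.2 CPM, while Muller glia, rods, cones and horizontal cells were at 11.2 CPM or less. An antisense gene, Gm29083, lies inside Nrp2 and had 90 UMIs against 12213 for Nrp2. Whether reads were counted by strand is not given in the sources used here, so reads of overlapping genes may not be separable.

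Angpt1 (chr15:42424723-42676977, minus strand) was found in astrocytes (182 ± 80.5 CPM) and mural cells (133 ± 39.7 CPM), with overlapping ranges, and mural cells lay above every library of ganglion cells (35.2 ± 7.21). Its highest level, however, was in a neuronal cluster without a type, led by Spink13, Esr1 and Spink10 (1190 nuclei). There it reached 575 ± 93.3 CPM (495 to 758) and this cluster alone held 44.3% of all Angpt1 UMIs. A bipolar cluster led by Erbb4, Slit2 and Fat4 had 160 ± 30.9 CPM, against 27.2 ± 3.61 over all bipolar nuclei. The shares of thinned nuclei were 13.7% in astrocytes, 7.32% in mural cells and 0.340% in microglia. Gm17473, an antisense gene that overlaps Angpt1 by 737 bases, had 112 UMIs against 7094 for Angpt1.

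**Figure D2:**
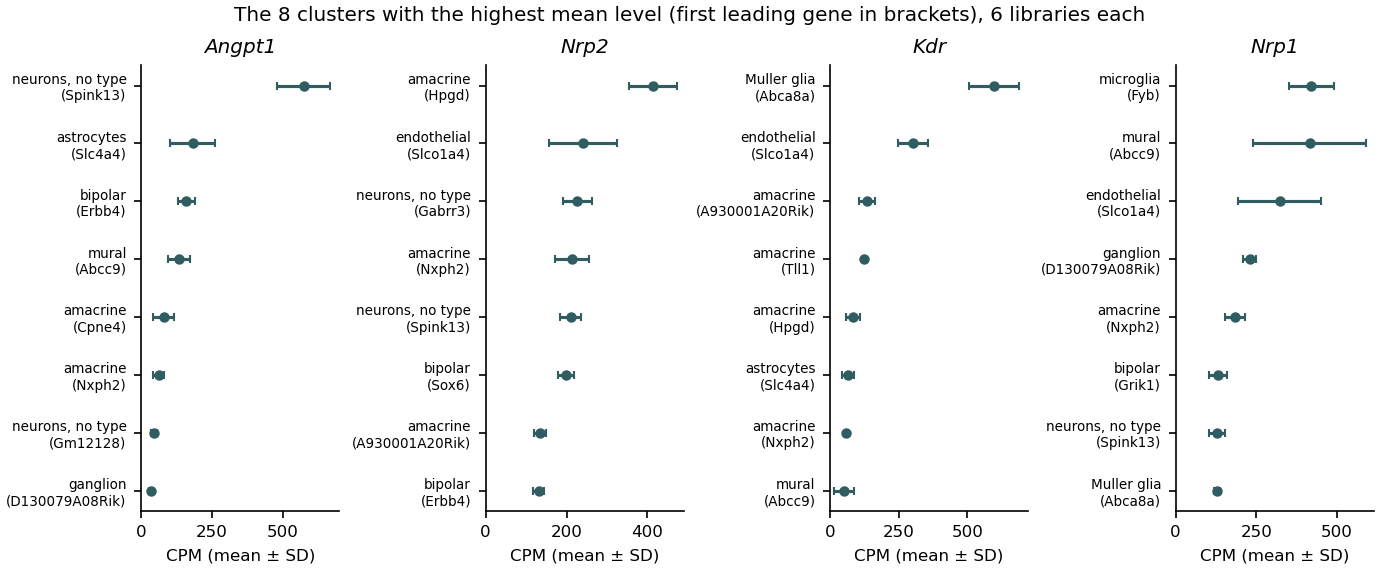
Mean CPM ± SD over 6 libraries of Angpt1, Nrp2, Kdr and Nrp1 in the 8 clusters with the highest mean of each, labelled by cell type and the first leading gene. Angpt1 is highest in the Spink13 cluster (575 CPM) and Nrp2 in the Hpgd amacrine cluster (413 CPM).

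Angpt2 (chr8:18690263-18741562, minus strand) was spread over all types, from 12.5 ± 1.94 CPM in rods to 79.9 ± 12.2 CPM in horizontal cells. Mural cells and microglia overlapped with horizontal cells, at 68.8 ± 40.2 and 64.7 ± 18.4 CPM. The gene lies wholly within Mcph1, a gene of the opposite strand that acts in chromosome condensation and had 8056 UMIs against 5911 for Angpt2. Mcph1 was also lowest in rods (17.1 ± 2.35 CPM) and highest in horizontal cells (97.4 ± 14.3 CPM), and the CPM of Angpt2 divided by that of Mcph1 varied between 0.601 (Muller glia) and 1.04 (mural cells) over the 11 types. Only its variation between types is described, since gene length can set its size. The part of Mcph1 reads in the Angpt2 counts was not tested.

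**Figure D3:**
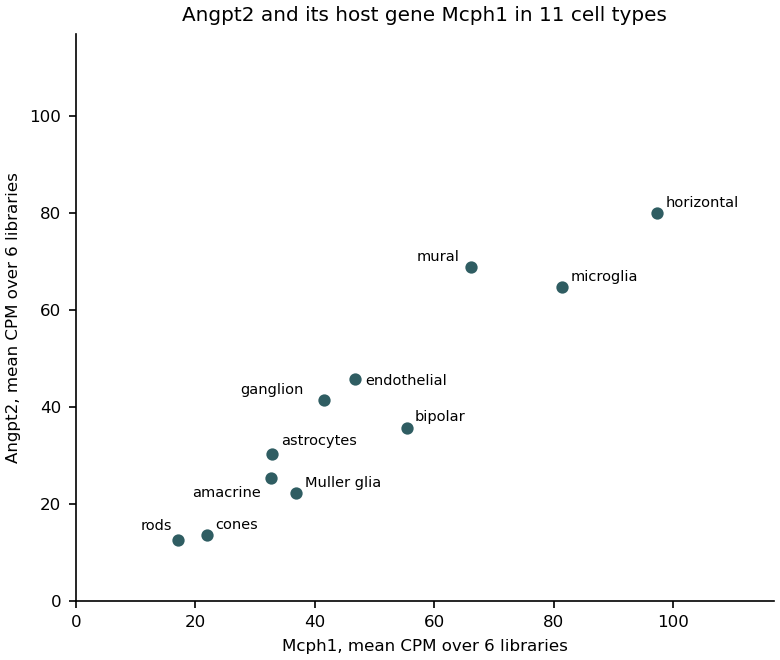
Mean CPM over 6 libraries of Angpt2 (vertical) against Mcph1, the gene of the opposite strand that contains it (horizontal), with 1 point for each of the 11 cell types. The points run from rods (17.1 and 12.5 CPM) to horizontal cells (97.4 and 79.9 CPM).

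Tek (chr4:94739289-94874976, plus strand) had the widest gap between its first and its next type among the 10 genes, with 605 ± 229 CPM in endothelial nuclei (337 to 985), 19.2-fold the mean of mural cells (31.6 ± 26.8). That mural mean came from 10 UMIs with 2 libraries at 0, so the size of the fold is uncertain. After thinning, 37.7% of endothelial nuclei (31.2 to 44.6) had a Tek UMI. The next highest shares were 3.25% of mural and 3.15% of ganglion nuclei, and the lowest was 0.136% of microglia (2 of 1469 nuclei). Ganglion and amacrine cells, cones, bipolar cells and rods ranged from 15.8 to 30.7 CPM, and each overlapped with its neighbours in the order. Amacrine cells gave 34.2 ± 3.31% of all Tek UMIs.

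Pattern likeness was measured by Pearson's r of log2(CPM + 1) over 66 sums (11 types in 6 libraries) among 13632 genes, as a description without a test, since these sums share libraries and differ in depth. Flt1 was most like Calcrl (r = 0.92) and Nostrin (0.89), and Nrp1 most like Tmem164 (0.90) and Arap2 (0.89). Kdr was most like Inf2 and Cav1 (both 0.84), which were highest in Muller glia as well. The closest genes to Vegfa were Gm26873 and Cfap47 (both 0.83), and those to Tek were Dnah3 (0.81) and Kank3 (0.80). For Nrp2 they were Ptprm (0.84) and Chd3 (0.83), for Angpt1 Ctnna3 (0.85) and Nr2f1 (0.84), and for Vegfb Sh3glb2 (0.90) and 1110046J04Rik (0.73). Pgf, with Plekhg2 (0.78) and Ddr2 (0.77), and Angpt2, with Dpysl2 (0.71) and 4930503L19Rik (0.69), had the lowest r to their first closest gene.

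To determine whether IL-27 altered these genes, UMI sums per library were compared between IL-27 treated and saline control retinas by the quasi-likelihood test of edgeR, adjusted over all genes of a fit after Benjamini and Hochberg, in glia as a whole, in neurons as a whole (those without a type included) and in each of the 11 types. Of the 130 pairs of gene and fit, 91 passed the filter on low counts, among them 10 genes in glia, neurons and Muller glia, 5 in endothelial nuclei, 3 in astrocytes and 2 in mural cells. None of the 91 differences passed an adjusted p of 0.05, and none did with DESeq2. At an unadjusted p under 0.05 there were 9 by edgeR (9.89%), 4 higher and 5 lower with IL-27, and 6 by DESeq2. Over all genes of the 13 fits, 4.26% had such an unadjusted p.

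Few genes of any kind were called by edgeR in the 6 libraries together. The share of all tested genes past the adjusted threshold was 0.0199% in glia, 0.0215% in Muller glia, 0.00756% in rods, 0.00679% in bipolar and 0.00611% in amacrine cells, and 0% in the other 8 fits. The called genes, named after their values were seen, were Prss56 and Adamts19, both higher with IL-27, and Gm39075, lower. Adamts19 and Gm39075 were called in glia and Muller glia only. Prss56 was called there and in rods (3.79), bipolar (4.05) and amacrine cells (4.30), as log2 fold changes, against 4.19 in Muller glia. RNA carried over between nuclei was not estimated, and low levels or differences in neurons, such as Flt1 in cones, may include it. The counts of called genes depended on the processing. The 3 genes called in glia and the 3 in Muller glia became 65 and 103 by DESeq2, 264 and 421 by edgeR without IL-27 replicate 10, and 144 and 311 with no filter on low counts. With no filter there were also 6 (microglia) to 64 (bipolar cells) in each of the other types, among them 38 in mural and 30 in endothelial nuclei. On simulated sums of 13938 genes for Muller glia, the test called 65.7% of 2-fold and 14.9% of 1.5-fold changes, and for endothelial nuclei (2380 genes) 1.49% of 1.5-fold, 17.9% of 2-fold and 77.3% of 4-fold changes. The simulated counts were drawn independently for each gene and library, without differences in cluster shares between libraries. The recovery may therefore be lower in the real libraries.

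**Figure D4:**
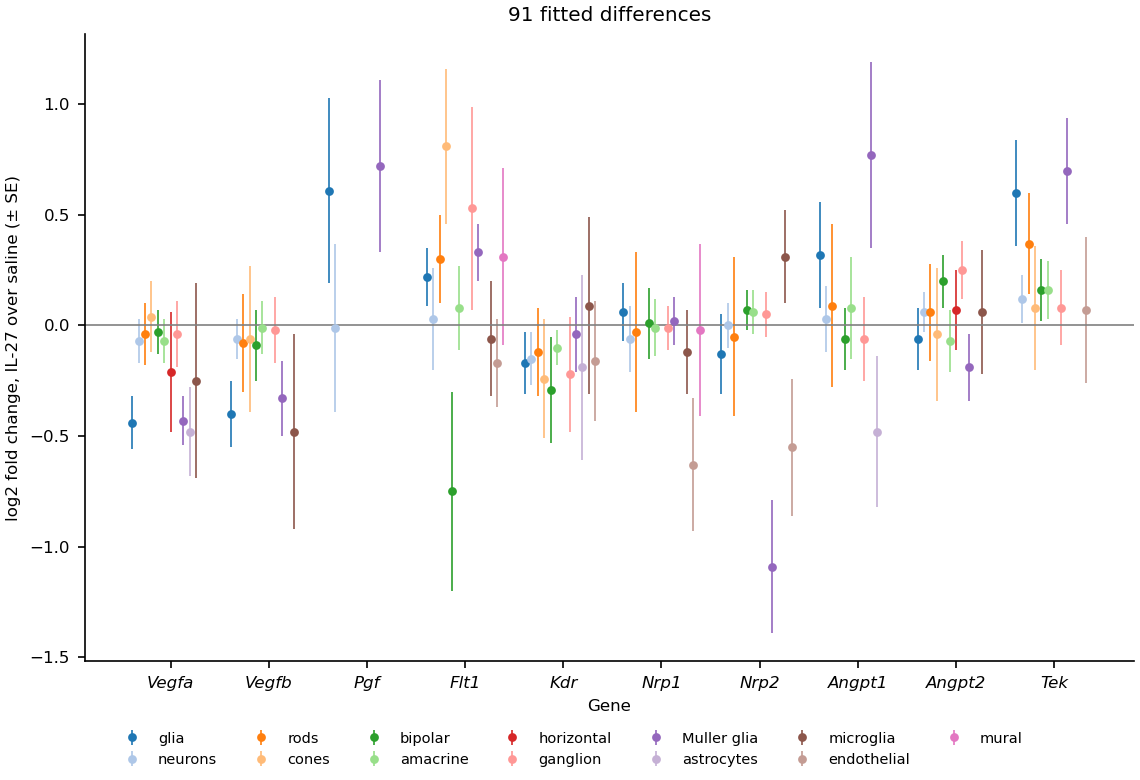
The 91 fitted log2 fold changes (IL-27 over saline, ± SE) grouped by gene on the horizontal axis, with a colour for each of the 13 fits. Most lie near 0, and the lowest is Nrp2 in Muller glia (-1.09). None passed an adjusted p of 0.05.

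Vegfa in glia was among the differences with the smallest unadjusted p. In Muller glia it had 138, 118 and 120 CPM with saline and 96.6, 93.0 and 85.7 CPM with IL-27. Every IL-27 library lay below every saline library, with a log2 fold change of -0.43 ± 0.11 (SE; adjusted p = 0.252 by edgeR). Over all glia the change was -0.44 ± 0.12 (adjusted p = 0.341), again without overlap (133 to 145 and 91.2 to 118 CPM). Here and below, lack of overlap is weak evidence, since a permutation test of 3 against 3 libraries cannot give a p below 0.1. The share of all genes without overlap was not counted.

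Astrocytes, where Vegfa was highest, had 820, 918 and 774 CPM with saline and 615, 795 and 419 CPM with IL-27. The groups overlapped, since IL-27 replicate 5 lay above saline replicate 6, and the change was -0.48 ± 0.20 (adjusted p = 0.988 by edgeR). In the neurons together it was -0.07 ± 0.10 (adjusted p = 1), and in no neuronal type did its p fall below 0.05. In endothelial nuclei the 5 Vegfa UMIs all came from the IL-27 libraries, which is too few to fit. The difference between the changes of glia and neurons was not tested.

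**Figure D5:**
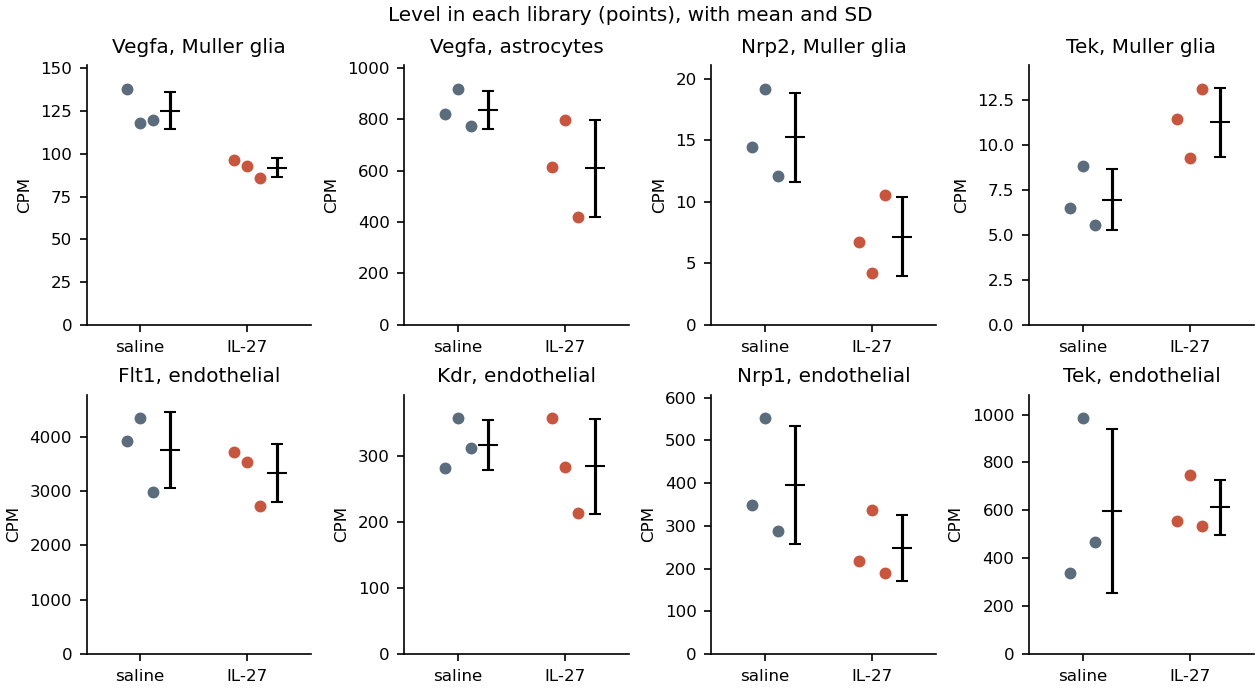
CPM in each library (points) with the group mean and SD beside them, for saline (n = 3) and IL-27 (n = 3). The groups do not overlap for Vegfa, Nrp2 and Tek in Muller glia and overlap for Vegfa in astrocytes and for Flt1, Kdr, Nrp1 and Tek in endothelial nuclei.

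Of the other glial differences, Nrp2 in Muller glia was the largest, with 14.5, 19.2 and 12.1 CPM in saline and 6.71, 4.24 and 10.6 CPM in IL-27 libraries, which did not overlap. Its log2 fold change was -1.09 ± 0.30 (adjusted p = 0.284 by edgeR). It was called without IL-27 replicate 10 (-1.45, adjusted p = 0.0232) and with no filter on low counts (-1.10, adjusted p = 0.0165). Under these settings 421 and 311 genes of any kind were called in Muller glia, against 3 in the main fit.

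This difference moved with the share of 1 Muller cluster, led by Fbln1, Fam129a and Sned1 (669 nuclei), the Muller cluster with the highest mean of Fbln1, Frmpd4, Reln and Csmd3. The cluster made up 20.2, 21.9 and 11.5% of Muller nuclei with saline and 1.49, 0.717 and 12.9% with IL-27. It held 72.0% of the Nrp2 UMIs of saline Muller nuclei, at 74.8 CPM against 5.09 CPM in the other saline Muller nuclei. Without it, the Nrp2 change in Muller glia was 0.17 ± 0.30, and when doublets were not removed it was 0.13. Keeping doublets also meant clustering and naming the nuclei anew, so the Muller nuclei of that setting can differ. Whether they held the nuclei of this cluster was not examined. In that setting Vegfa was -0.55 and Flt1 0.15 in Muller glia, near the -0.55 and 0.16 without the cluster. The Fbln1 cluster had 6 of the 12 Muller markers in at least 10% of its nuclei and above the level of all nuclei. The other Muller cluster had all 12 (marker score 2.22), so the name of the Fbln1 cluster is less certain. The class with the second highest marker score in the Fbln1 cluster was amacrine (0.25, against 0.86 for Muller glia), and amacrine cells had 66.6 CPM of Nrp2. The part of such RNA in the Nrp2 level was not tested.

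The same cluster differed from the other Muller nuclei in further genes of the family. In the UMIs of the 3 saline libraries pooled it had 31.1 CPM of Kdr and 181 CPM of Flt1, against 646 and 1270 CPM in the other Muller nuclei, and 53.2 against 139 CPM of Vegfa. Nrp1 was lower as well (53.7 against 130 CPM), as was Tek, from 6 UMIs (3.01 against 7.72 CPM). Vegfb was higher there, at 33.1 against 15.2 CPM, as was Angpt2 (34.1 against 21.8). Pgf, from 11 UMIs, had 7.41, 5.90 and 0 CPM there in the 3 saline libraries, against 4.98, 4.34 and 3.96 in the other Muller nuclei, and Angpt1 was at 8.53 against 9.74 CPM. Flt1 in the cluster was 191, 140 and 256 CPM in the saline libraries taken singly. In IL-27 replicates 4, 5 and 10 it was 1654, 358 and 593 CPM, from 10, 4 and 86 nuclei, against 1416, 1213 and 1636 CPM in the other Muller nuclei, so that replicate 4 did not share the lower level. Without this cluster the Vegfa change in Muller glia was -0.55 ± 0.11 (adjusted p = 0.228 by edgeR), while that of Flt1 was 0.16 ± 0.12, against 0.33 ± 0.13 with it. That of Vegfb was -0.13 ± 0.19, against -0.33 ± 0.17 with it, and that of Kdr -0.24 ± 0.14, against -0.04 ± 0.17. Over all glia, leaving the cluster out moved Kdr from -0.17 ± 0.14 to -0.32 ± 0.12 and Nrp2 from -0.13 ± 0.18 to 0.44 ± 0.18, both with an adjusted p of 0.946 by edgeR and an unadjusted p under 0.05.

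Flt1 in Muller glia had 1104, 984 and 1268 CPM in saline and 1419, 1207 and 1531 CPM in IL-27 libraries, and the groups overlapped (adjusted p = 0.480 by edgeR). Its log2 fold change was 0.15 with no doublet removal and nuclei named anew, against 0.33 in the main fit. Kdr in Muller glia had 515, 584 and 576 CPM in saline and 584, 615 and 395 CPM in IL-27 libraries (-0.04 ± 0.17). IL-27 replicate 10 was the lowest of the 6 libraries for Kdr in Muller glia, rods (28.4 CPM), cones, bipolar, horizontal and ganglion cells and endothelial nuclei (214 CPM), but not in amacrine cells, microglia, mural cells or astrocytes, where it was the second highest (90.7 CPM). Tek was sparse in Muller glia, with 6.5, 8.82 and 5.52 CPM in saline and 11.4, 9.28 and 13.1 CPM in IL-27 libraries. These did not overlap (0.70 ± 0.24, adjusted p = 0.415), from 210 UMIs in all, and the thinned share of 0.834% of Muller nuclei lay between those of microglia (0.136%) and ganglion cells (3.15%).

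In the fits named above, 4 of the 10 genes in Muller glia and 3 of 10 in glia had an unadjusted p under 0.05, against 9.13% and 8.14% of all genes in these fits. Muller nuclei make up most of the glia, so these fits share nuclei. The 3 in glia were Vegfa, Vegfb (-0.40 ± 0.15) and Tek (0.60 ± 0.24). Without the Fbln1 cluster, Vegfb in glia was -0.25 ± 0.17 and Tek 0.53 ± 0.25, and neither had an unadjusted p under 0.05. With no doublet removal and nuclei named anew, Vegfb was -0.26. The median log2 fold change of the 10 genes was 0.00 in glia and -0.01 in Muller glia, and that of all genes tested was 0.00 in both. The other two such differences were Vegfa in astrocytes, given above, and Flt1 in cones. Flt1 in cones, from 85 UMIs, had 8.99, 6.38 and 6.44 CPM in saline and 10.2, 17.7 and 11 CPM in IL-27 libraries (0.81 ± 0.35, adjusted p = 0.998 by edgeR). It was 0.51 without IL-27 replicate 5 and 0.47 with all nuclei.

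Endothelial nuclei, 23 to 47 per library in the sums, gave 5 genes that could be fitted. Flt1 had 3920, 4342 and 2977 CPM in saline and 3723, 3538 and 2720 CPM in IL-27 libraries (-0.17 ± 0.20). Kdr had 282, 358 and 313 CPM in saline and 358, 284 and 214 CPM in IL-27 libraries (-0.16 ± 0.27). For both receptors the groups overlapped.

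Nrp1 in endothelial nuclei had 348, 552 and 287 CPM in saline and 219, 336 and 190 CPM in IL-27 libraries (-0.63 ± 0.30; adjusted p = 0.998 by edgeR). Nrp2 had 369, 313 and 183 against 219, 216 and 143 CPM (-0.55 ± 0.31, adjusted p = 0.998). Tek had 337, 985 and 470 against 557, 746 and 535 CPM (0.07 ± 0.33), and saline replicates 1 and 2 were its lowest and highest libraries. Without saline replicate 2 the Nrp1 change was -0.38, and without saline replicate 1 that of Nrp2 was -0.31. All 3 overlapped between the groups, and the median over the 5 genes was -0.17, against 0.00 over all 2380 genes tested.

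Mural nuclei allowed 2 fits, Flt1 (0.31 ± 0.40) and Nrp1 (-0.02 ± 0.39). The Flt1 change was 0.72 without saline replicate 2, 0.17 without saline replicate 6, 0.18 without saline replicate 1 and 0.03 with all nuclei. Angpt1, a ligand of Tek, had 43 UMIs there, under the filter, with 68.1, 174 and 113 CPM in saline and 123, 156 and 165 CPM in IL-27 libraries. In neurons as a whole all 10 genes were fitted, and their log2 fold changes lay between -0.15 (Kdr) and 0.12 (Tek), with standard errors of 0.09 to 0.11 for Vegfb, Nrp2, Angpt2, Vegfa and Tek. Nrp1 and Nrp2 in ganglion cells changed by -0.01 ± 0.10 and 0.05 ± 0.10, and Nrp1 in microglia by -0.12 ± 0.19. The other 39 pairs had too few UMIs for a fit, such as Pgf in every type but Muller glia.

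Ratios within a library were compared between the groups with a two-sided exact permutation test over 5 comparisons, which cannot give a p below 0.1 with 3 libraries per group. The log2 of Flt1 over Kdr UMIs in endothelial nuclei was 3.55 ± 0.28 with saline and 3.56 ± 0.16 with IL-27 (SD; n = 3 libraries per group, exact p = 0.900). That of Angpt2 over Angpt1 over all nuclei was -0.25 ± 0.05 and -0.25 ± 0.43 (exact p = 1), with IL-27 replicate 5 at -0.74 and the other libraries between -0.30 and 0.08. That of Nrp1 over Nrp2 in neurons was -0.36 ± 0.02 and -0.44 ± 0.20 (exact p = 0.700), with IL-27 replicate 10 lowest at -0.66.

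The share of nuclei that were endothelial was 0.434 ± 0.124% in saline and 0.481 ± 0.114% in IL-27 libraries (exact p = 0.8, n = 3 each). The mural share was 0.216 ± 0.0548% and 0.288 ± 0.0828% (exact permutation p = 0.300, n = 3 each). After Benjamini-Hochberg adjustment over the 5 comparisons every p was 1.

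Of 79 further genes of the pathway in 6 lists, 73 were fitted at least once, in 561 pairs of gene and fit. None passed an adjusted p of 0.05 by edgeR or DESeq2. At an unadjusted p under 0.05 there were 15 higher and 19 lower by edgeR and 15 in all by DESeq2. These 34 pairs were 6.06% of the 561, beside the 4.26% over all genes of the 13 fits. The hypoxia targets besides Vegfa had 1 higher and 7 lower of 84 pairs (9.52%), the hypoxia regulators (Hif1a, Epas1 and others) 0 higher and 2 lower of 94 (2.13%). The semaphorins and plexins had 5 and 5 of 78 (12.8%), signalling genes below the receptors 5 and 4 of 226 (3.98%), tip and stalk genes of sprouting vessels 2 and 1 of 52 (5.77%), and other VEGF and angiopoietin genes 2 and 0 of 27 (7.41%). Glia and Muller glia, where these shares were 8.14% and 9.13% over all genes, enter each list as fits of their own, and whether a list differed from all genes was not tested.

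The genes of these lists with the smallest p in glia were Sema3a, Ndrg1 and Slc2a1, and none of the 3 overlapped between the groups. They were picked by their p in the same libraries, so the lack of overlap is no separate support. Sema3a, a semaphorin ligand of Nrp1, had 12.2, 17.0 and 12.5 CPM in saline and 6.83, 5.62 and 9.45 CPM in IL-27 libraries (-0.96 ± 0.24, adjusted p = 0.322 by edgeR). Ndrg1, a hypoxia target, had 71.1, 71.8 and 68.2 against 48.5, 45.8 and 61.0 CPM (-0.47 ± 0.12, adjusted p = 0.332). Slc2a1, the glucose transporter GLUT1, had 144, 155 and 162 against 135, 128 and 112 CPM (-0.31 ± 0.11, adjusted p = 0.509).

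In neurons these were Tnip2 (0.41 ± 0.14), Klf4 (0.80 ± 0.33) and Sema3a (0.20 ± 0.09), each with an adjusted p of 1 by edgeR. Sema3a in neurons had 64.0 to 78.5 CPM in saline and 82.2 to 84.2 CPM in IL-27 libraries. Neither Sema3a nor Klf4 overlapped between the groups, whereas Tnip2 did (saline replicate 2 at 11.1 CPM, IL-27 replicate 5 at 10.6 CPM). All 3 were likewise picked by their p in the same libraries. No gene of the lists had a p under 0.05 in endothelial or mural nuclei, where 28 and 10 of them were fitted. The median log2 fold change of the fitted genes was 0.04 in glia, 0.03 in neurons and 0.02 in endothelial nuclei, against 0.00 over all genes tested in each, and -0.12 in mural nuclei, against -0.01. Without IL-27 replicate 10, 4 pairs of the lists were called, Ndrg1 in glia and in Muller glia and Sema3a and Sema3e in Muller glia. Over all genes, 264 were called in glia and 421 in Muller glia without that library, against 3 in each with it.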

How the data were processed

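The deposited values are raw UMI counts per gene and barcode. The authors isolated nuclei from frozen retinas, prepared Chromium 3′ libraries and counted with Cell Ranger against the 10x Genomics mouse reference, without further normalization. The submitters' processing notes name Cell Ranger 9.0.1 and Seurat 5.2.1, and the matrix headers Cell Ranger 8.0.1. The genome build is not given in the sources used here, and 32158 of 32285 gene identifiers are in GENCODE M21, which gave the gene positions.

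Following the study's limits, 56205 barcodes passed (UMIs above 500, genes 200 or more, mitochondrial share below 5%), and 4012 doublets in all (622 to 724 per library) were removed by Scrublet, run on each library (scanpy 1.11.5) at an expected rate of 8% with homotypic adjustment. Nuclei were clustered (Louvain, igraph 0.11.9, 2000 variable genes, 25 components, 20 neighbours, resolution 0.25, seed 20), with the 10 genes and the pathway lists left out, into 32 clusters. A cluster was named from at least 3 markers and left without a type where its leading genes held more markers of another class. Counts were summed per library and type, omitting nuclei whose log2 total was an outlier (beyond 2 MAD of the median), and tested with edgeR 4.0.16 (filterByExpr at 10 counts, TMM, quasi-likelihood, Benjamini-Hochberg per fit, threshold 0.05). Columns of the count tables without a sample numbered 0. Ratios and shares were compared with exact permutation tests. The test was first tried on simulated data in which 200 genes were changed.

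Named genes are the 10 members, for each the 2 genes of highest Pearson r among those of at least 5 CPM on average, and per compartment up to 3 genes of the pathway lists with the smallest p under 0.05. The members and lists were chosen with earlier results of these data known. Alternatives were DESeq2 1.42.0, its size factors, library totals, no filter or a filter at 30 counts, all nuclei, doublets kept (with nuclei clustered and named anew), a mitochondrial limit of 1%, a resolution of 0.5, Muller glia without the Fbln1 cluster, and each library left out. Python 3.11.15, numpy 2.4.6, scipy 1.17.1 and R 4.3.3 were used. The study's normalized values, integration and atlas annotation were not used here.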

Additional observations from a re-analysis of the deposited data

How the results depend on the processing

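No paired analysis was possible because the saline and IL-27 libraries share no replicate number. The count of members called stayed at 0 under DESeq2, both other scalings, the filter at 30 counts, all nuclei, no doublet removal, the 1% mitochondrial limit, the resolution of 0.5 and Muller glia without the Fbln1 cluster. It was 1 with no filter on low counts and 0 to 1 with each library left out, in both cases Nrp2 in Muller glia (-1.10, and -1.45 without IL-27 replicate 10). The count of pathway pairs called was 0 to 4 with each library left out, with the 4 reached without IL-27 replicate 10. Without that library 421 genes were called in Muller glia and 264 in glia, against 3 in each, and 103 and 65 by DESeq2; the cause was not tested.

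Vegfa kept its direction and stayed uncalled in glia (-0.54 to -0.35) and Muller glia (-0.55 to -0.35) under all 16 alternatives, with adjusted p of 0.146 to 0.922 and 0.111 to 0.801, and in astrocytes (-0.67 to -0.30) under 15. Nrp2 in Muller glia turned to 0.13 with no doublet removal, where nuclei were also named anew, and 0.17 without the Fbln1 cluster. Tek in endothelial nuclei turned to 0.00 with all nuclei, -0.16 with no doublet removal and -0.04 at the 1% limit, and ranged from -0.22 to 0.54 with each library left out. Nrp1 in mural nuclei turned to 0.04 with library totals and 0.05 with no filter, and ranged from -0.54 to 0.26 with each library left out. With each library left out, the change in endothelial nuclei ranged from -0.90 to -0.38 for Nrp1, -0.78 to -0.31 for Nrp2, -0.34 to -0.03 for Kdr and -0.27 to -0.08 for Flt1, and that of Flt1 from 0.17 to 0.72 in mural nuclei and 0.51 to 1 in cones, with none called. Mural nuclei gave no value with no doublet removal.

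The difference of log2 Flt1 over Kdr in endothelial nuclei, 0.01, turned to -0.05 with no doublet removal and -0.15 at the 1% limit, and ranged from -0.14 to 0.14 with each library left out. That of Angpt2 over Angpt1, -0.01, turned to 0.00 at the 1% limit and ranged from -0.17 to 0.24, the last without IL-27 replicate 5 (exact permutation p = 0.1, the smallest possible). That of Nrp1 over Nrp2 in neurons, -0.08, ranged from -0.16 to 0.03, with an exact permutation p of 0.1 at -0.16 (without IL-27 replicate 4), and the endothelial share, 0.0469 percentage points, from -0.0182 to 0.105. The mural share, 0.0719 percentage points higher with IL-27, was 0.0719 at the resolution of 0.5 and 0.0733 at the 1% limit and ranged from 0.0393 to 0.118 with each library left out, the last without IL-27 replicate 4 (exact permutation p = 0.1). The cause of these changes was not tested.

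Without thinning, the mean shares of nuclei with a UMI were 73.8% for Vegfa and 32.4% for Angpt1 in astrocytes, 25.5% for Vegfb in ganglion cells, 75.2% for Kdr in Muller glia, 45.8% for Nrp1 in microglia, 38.5% for Nrp2 and 66.2% for Tek in endothelial nuclei and 50.5% for Angpt2 in horizontal cells, since a deeper nucleus has more UMIs to be found in. No scaling moved the median of all genes by more than 0.04 on the log2 scale. Endothelial, mural and astrocyte values rest on 239, 131 and 297 nuclei.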

Other observations

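Of 7 other genes of the VEGF and angiopoietin family, 5 had their highest mean CPM in endothelial nuclei. Ptprb, the phosphatase that opposes Tek signalling, had 2649 ± 498 CPM there (SD, n = 6 libraries), against 21.7 ± 53.2 in mural cells from 6 UMIs. Tie1, the relative of Tek, had 180 ± 26.9 CPM in endothelial nuclei and 17.0 ± 41.7 in mural cells from 3 UMIs. Flt4, the receptor of VEGF-C and VEGF-D, had 36.1 ± 29.1 CPM in endothelial nuclei from 22 UMIs, and 10.7 ± 3.86 CPM in cones from 89 UMIs.

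The ligand Vegfc was also highest in endothelial nuclei (187 ± 99.2 CPM from 121 UMIs), but the many amacrine nuclei held more of its UMIs, 2039 at 34.2 ± 5.23 CPM. Vegfd had 100 ± 50.4 CPM in endothelial nuclei from 59 UMIs, and 12.6 ± 1.91 CPM in ganglion cells from 280 UMIs. Angpt4 was highest in astrocytes (50.9 ± 27.2 CPM), the type with the highest Vegfa and the highest named-type Angpt1. Svep1 was highest in mural cells (27.5 ± 35.6 CPM), from 7 UMIs. These levels describe the 6 libraries together and were not tested.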
